A study of Mus musculus with 2 samples.

Results

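The genes examined encode the AP-1 and BATF transcription factors of mouse T cells: Fos, Fosb, Fosl1 and Fosl2 of the FOS family, Jun, Junb and Jund of the JUN family, and Batf and Batf3. An element of the deposited reporter list was assigned to a gene when the transcription start site (TSS) nearest to its midpoint, among protein-coding genes of GENCODE M21 basic, belonged to that gene and lay within 100 kb. This gave 11 elements at 7 of the 9 genes, out of 10531 listed elements, of which 9628 lay within 100 kb of a protein-coding TSS. Fos held 5 elements, Fosb, Fosl2, Jun, Junb, Jund and Batf3 held 1 each, and Fosl1 and Batf held none.

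The assay was STARR-seq, a reporter assay in which each cloned DNA fragment sits in the transcript it may drive, and enhancer activity is read from the abundance of that transcript. The labels state that the plasmids were episomes introduced by transient transfection into primary naive CD4 T cells of C57BL/6NJ mice. The cells had been activated for 3 days with antibodies to CD3e (0.25 µg/mL) and CD28 (1 µg/mL), antibodies to interleukin-4 and to interferon-gamma (2 µg/mL), and interleukin-2 (10 ng/mL), with sex and age not recorded. The doses for CD3e and CD28 are those given for replicate 2 alone. Those for interferon-gamma and interleukin-2 are given for replicate 1 alone. The series held 1 group of 2 biological replicates, separate biosamples under the same donor record, and no second condition. The stated size range was 200 to 400, and 30 µg was the starting amount. A fragment on a plasmid was measured outside its chromosome, so its position describes where it came from and not which gene it acts on. The list holds no gene expression, so the labelled cell type was not checked against marker genes.

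The authors' deposited list gave 1 effect, 1 p-value and 1 adjusted p-value per element for both replicates together. The effect was taken as log2. Its log base and the direction of its contrast are not given in the sources used here, so effects are given as signed values without folds, and an element is called positive when its effect was above 0. The list held the 9.18% of 114722 implied tests with an adjusted p of at most 0.01. Regions outside the list were not analysed here. The depth behind each element is unknown and the spread between the replicates could not be computed, so values below are descriptions of 1 list, and differences between them were not tested.

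AP-1 is a dimer of basic leucine zipper proteins. FOS proteins dimerise with JUN proteins, JUN proteins can also pair with each other, and BATF proteins pair with JUN proteins and bind composite sites together with IRF4 or IRF8 in lymphocytes. T cell receptor and costimulatory signals induce several of these genes within minutes through kinase pathways that act on factors already bound at their promoters, such as SRF with its ETS-family partners at the serum response element (SRE) and CREB or ATF proteins at the cyclic AMP response element (CRE).

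At Fos and Junb, 3 elements carried a full match to the SRE (CC, 6 bases of A or T, GG), and a stretch of each is shown because the match was rare in the list. The sequences are from GRCm38.p6, the C57BL/6J reference assembly of mm10, written 5′ to 3′ on the strand of the gene, with the SRE match in capitals. The Fos promoter stretch is chr12:85473540-85473839 on the plus strand and runs from 350 to 51 bp before the TSS. The stretch downstream of Fos is chr12:85485968-85486267 on the plus strand. The stretch downstream of Junb is chr8:84976478-84976777 on the minus strand.
Fos promoter: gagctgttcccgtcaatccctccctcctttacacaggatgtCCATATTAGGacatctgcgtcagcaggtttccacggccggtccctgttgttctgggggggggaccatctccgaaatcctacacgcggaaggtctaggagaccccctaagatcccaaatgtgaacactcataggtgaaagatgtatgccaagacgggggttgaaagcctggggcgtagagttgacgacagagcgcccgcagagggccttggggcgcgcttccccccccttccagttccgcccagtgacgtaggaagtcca
Fos downstream: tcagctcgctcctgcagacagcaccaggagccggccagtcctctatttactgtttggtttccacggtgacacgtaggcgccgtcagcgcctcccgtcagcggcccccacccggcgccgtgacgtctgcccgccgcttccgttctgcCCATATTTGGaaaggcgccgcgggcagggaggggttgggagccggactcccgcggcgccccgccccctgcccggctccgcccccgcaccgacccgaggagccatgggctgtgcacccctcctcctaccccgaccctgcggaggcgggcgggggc
Junb downstream: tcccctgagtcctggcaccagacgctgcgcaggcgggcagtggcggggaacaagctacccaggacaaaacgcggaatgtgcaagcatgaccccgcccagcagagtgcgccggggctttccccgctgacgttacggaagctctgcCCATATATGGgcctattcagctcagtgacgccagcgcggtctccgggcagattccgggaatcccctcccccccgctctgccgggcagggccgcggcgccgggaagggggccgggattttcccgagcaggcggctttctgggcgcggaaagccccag

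The Jun and Jund promoters carried a different kind of site. The Jun stretch, chr4:95052223-95052522 on the minus strand, shows in capitals TGACATCA, the variant AP-1 site through which JUN and ATF proteins are known to act on the Jun promoter. The Jund stretch, chr8:70698649-70698948 on the plus strand, shows in capitals the CRE, TGACGTCA. Both end at the base before the TSS.
Jun promoter: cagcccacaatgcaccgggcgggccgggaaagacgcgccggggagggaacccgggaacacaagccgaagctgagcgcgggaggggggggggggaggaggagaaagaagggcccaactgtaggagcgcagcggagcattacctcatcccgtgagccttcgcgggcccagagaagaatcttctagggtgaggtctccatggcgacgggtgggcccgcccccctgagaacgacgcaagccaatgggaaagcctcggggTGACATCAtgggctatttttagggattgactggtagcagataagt
Jund promoter: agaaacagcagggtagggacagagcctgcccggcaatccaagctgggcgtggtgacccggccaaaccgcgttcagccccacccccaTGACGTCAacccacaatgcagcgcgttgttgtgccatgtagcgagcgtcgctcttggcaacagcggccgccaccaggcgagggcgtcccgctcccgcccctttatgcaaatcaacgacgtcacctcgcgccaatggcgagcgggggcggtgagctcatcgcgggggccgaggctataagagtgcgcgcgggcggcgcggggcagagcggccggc

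The distal positive elements of Fosl2, Fosb and far upstream Fos are shown for contrast, since they had lower GC content and held neither the SRE nor the CRE. The whole Fosl2 element, chr5:32055701-32055975 on the plus strand, shows both of its AP-1 matches (TGANTCA) in capitals. The stretch far upstream of Fos, chr12:85444759-85445058 on the plus strand, shows a match to the interferon-stimulated response element (ISRE, here on the other strand). The stretch upstream of Fosb, chr7:19325829-19326128 on the minus strand, shows a match to the RUNX core (TGTGGT).
Fosl2 upstream: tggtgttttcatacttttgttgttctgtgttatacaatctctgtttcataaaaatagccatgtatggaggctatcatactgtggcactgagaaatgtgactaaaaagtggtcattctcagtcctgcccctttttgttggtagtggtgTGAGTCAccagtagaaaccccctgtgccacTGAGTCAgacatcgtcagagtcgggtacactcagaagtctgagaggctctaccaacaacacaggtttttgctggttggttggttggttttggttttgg
Fos far upstream: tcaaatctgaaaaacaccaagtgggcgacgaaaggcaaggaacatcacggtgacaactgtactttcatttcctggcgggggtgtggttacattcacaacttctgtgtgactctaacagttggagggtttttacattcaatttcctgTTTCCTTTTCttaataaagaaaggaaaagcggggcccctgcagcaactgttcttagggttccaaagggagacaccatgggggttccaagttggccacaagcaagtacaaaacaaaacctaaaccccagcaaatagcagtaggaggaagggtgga
Fosb upstream: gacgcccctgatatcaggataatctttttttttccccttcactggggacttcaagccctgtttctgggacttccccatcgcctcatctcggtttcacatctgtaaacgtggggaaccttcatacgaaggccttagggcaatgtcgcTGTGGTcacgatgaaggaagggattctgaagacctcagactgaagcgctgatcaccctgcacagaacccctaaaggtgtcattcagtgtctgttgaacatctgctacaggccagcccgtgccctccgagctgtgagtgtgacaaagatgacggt

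An element was listed for 7 of the 9 genes, beside 31.2% of all 21911 protein-coding genes. A positive element was listed for Fos, Fosb, Fosl2, Jun and Junb, 5 of the 9, beside 16.0% of all genes. A negative element was listed for Fos, Jund and Batf3, 3 of the 9, beside 19.8% of all genes. The choice of these genes was made with earlier results of the list known, so no count is a test. The territory of a gene is the sequence within 100 kb whose nearest protein-coding TSS is that of the gene. Territories of the 9 genes summed to 590 kb and held 1.87 elements per 100 kb, beside 0.617 over all protein-coding genes. Fos supplied 5 of these elements, and the size of a territory did not order the counts: Fosl2 (148 kb) and Jun (137 kb) held 1 each, as did Junb, whose territory of 10.2 kb was smaller than that of all but 8.15% of genes.

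**Figure D1:**
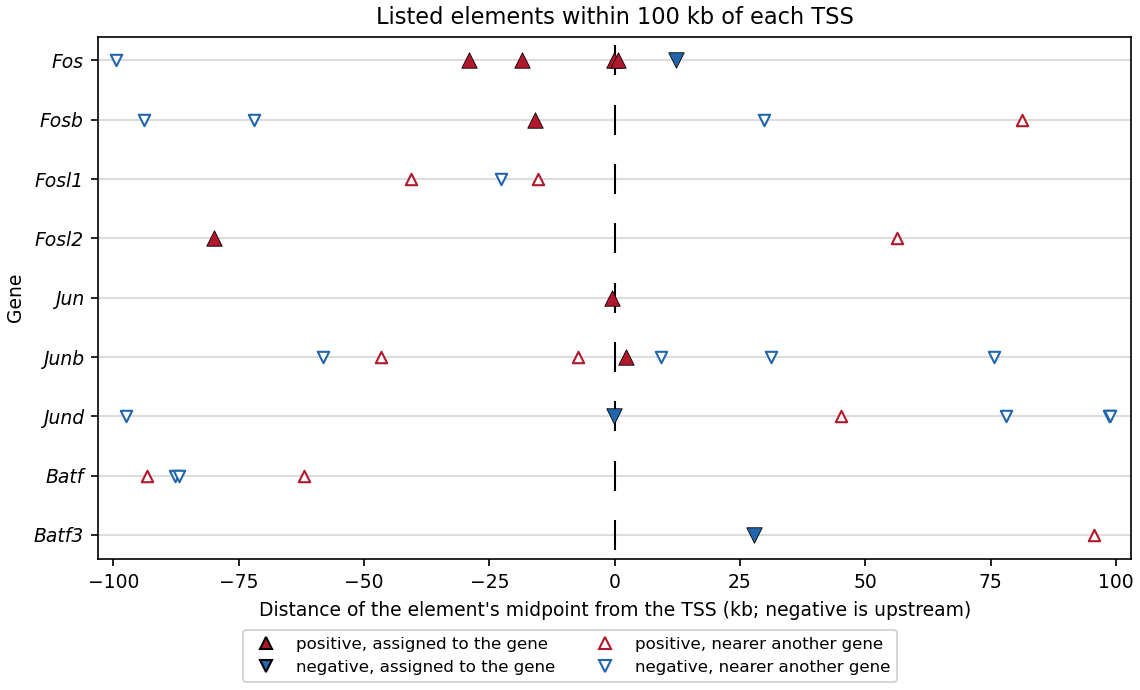
Listed elements within 100 kb of the TSS (vertical bar) of each of the 9 genes, by the distance of the element's midpoint in kb, with negative distances upstream. Filled triangles are the 11 elements assigned to the gene and open triangles the 25 elements nearer to another protein-coding gene; triangles pointing up (red) are positive and those pointing down (blue) negative. Fos holds 5 filled triangles, and Fosl1 and Batf hold open ones alone.

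Promoter elements were those with a midpoint within 1000 bp of a protein-coding TSS, and the others were called distal. Of the 4 promoter elements, 3 were positive (at Fos, with 2, and at Jun) and 1 was negative (at Jund). Promoter elements were listed for 3 of the 9 genes, beside 20.5% of all genes. Of the 7 distal elements, 5 were positive and 2 negative, and they lay at 5 of the 9 genes (Fos, Fosb, Fosl2, Junb and Batf3), beside 16.0% of all genes. The median effect was 1.00 over the 4 promoter elements and 0.85 over the 7 distal elements. Over all listed elements with an annotated position it was -1.35 for 4974 promoter elements, of which 15.6% were positive, and 1.22 for 5547 distal elements, of which 83.3% were positive. Thus 3 of the 4 promoter elements had the sign that promoters in the list had least often, and the distal elements had mostly the common sign. The 2 at Fos lay 100 bp apart and are not independent loci. For the one in the Fos intron, 53.9% of promoter elements in its GC bin were positive.

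Effects were of moderate size. They ranged from -1.03 at Jund to 1.57 upstream of Fos. The median size without sign was 1.03, beside 1.40 over the list, and 2 of the 11 elements, both at Fos, exceeded the median of the list. The median was 1.17 over the 8 positive elements, beside 1.36 for all positive elements, and -0.97 over the 3 negative elements, beside -1.44 for all negative elements. The smallest listed size in the series was 0.513, and the Fosl2 element, at 0.69, was the nearest to it among the 11. A search of the reference genome for further copies, at 95% identity over 80% of an element, found 0 for the 11 elements.

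GC content ranged from 44.0% at Fosl2 to 69.1% at Junb, with a median of 60.6%, beside 57.4% over the list. In the list as a whole, sign and GC content went together, and of 4885 elements with a GC content of at least 60%, 7.96% were positive. Of the 6 such elements at these genes, 3 were positive (the promoters of Fos and Jun, and Junb) and 3 negative (Jund, Batf3 and the Fos element 12.2 kb downstream). Among promoter elements of at least 60% GC, 2 of 3 were positive, beside 6.26% of 4248 in the list, whose median GC content was 68.0%. The 2, at Fos (61.9%) and Jun (60.6%), lay at the low end of that range. Of the 1048 listed promoter elements of 60 to 65% GC, 18.1% were positive. All 5 elements under 60% GC were positive, near the 88.9% of 5636 such elements in the list.

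**Figure D2:**
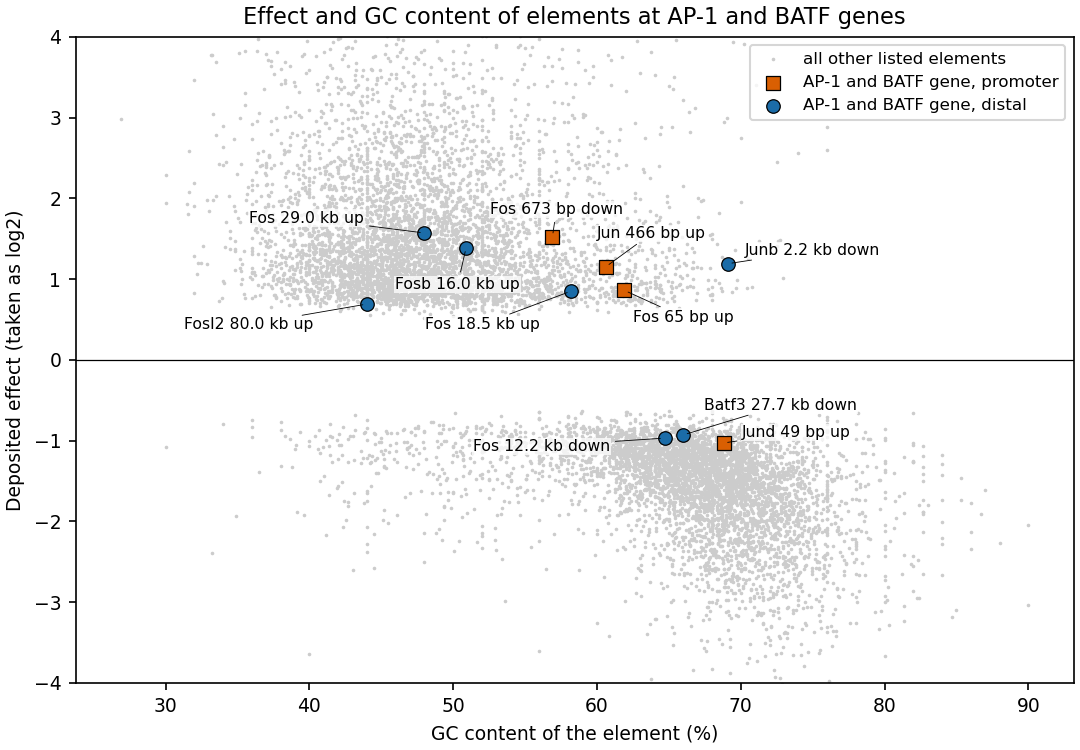
Deposited effect (taken as log2) of each element against its GC content in percent. Grey points are the 10521 listed elements with an annotated position, of which 188, with a size of more than 4, lie beyond the axis limits; orange squares and blue circles are the 4 promoter and 7 distal elements of AP-1 and BATF genes, labelled with their distance from the TSS. Jun, Junb and the Fos promoter lie above 0 at a GC content of over 60%, where grey points above 0 are few.

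Fos encodes the FOS protein, an immediate-early partner of JUN proteins, and its TSS lies on the plus strand of chromosome 12 at 85473890. It is 1 of 63 protein-coding genes (0.288%) with at least 5 elements within 100 kb. The territory of Fos, 112 kb, was larger than that of 77.5% of genes, and the median over all genes was 47.2 kb. The promoter element, chr12:85473476-85474175, was 700 bp wide, had its midpoint 65 bp upstream of the TSS and covered the TSS, the 5′ UTR and coding sequence of the first exon. Its effect was 0.86 in the authors' deposited list (adjusted p = 0.000738), at a GC content of 61.9% and 68.6 CpG per kb. Among the 1048 listed promoter elements of 60 to 65% GC, 18.1% were positive and the median effect was -1.14.

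A second element, chr12:85474276-85474850, began 100 bp past the end of the first and lay wholly within the first intron of Fos, with its midpoint 673 bp downstream of the TSS. This intron is known for a block to transcript elongation in some cells. The element's effect of 1.52 (the authors' adjusted p = 1.30e-06) was above that of the promoter element. Its GC content was 56.9%, and the 386 listed promoter elements of 55 to 60% GC had a median effect of 0.77, with 53.9% positive. Whether the promoter and first-intron elements are separate activities was not tested.

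The 3 distal elements of Fos lay in intergenic sequence. The farthest, chr12:85444726-85445075, was 350 bp wide and 29.0 kb upstream, and had the highest effect of the 11, 1.57 (the authors' adjusted p = 6.97e-07). Its GC content of 48.0% was low for these loci, and 94.8% of the 1727 distal elements of 45 to 50% GC were positive, with a median of 1.32. The next, chr12:85455026-85455800, was 775 bp wide and 18.5 kb upstream. Its effect was 0.85 (the authors' adjusted p = 0.00108) at 58.2% GC, where 72.1% of 365 distal elements were positive with a median of 1.04. It held 6 matches to the SP/KLF box (GGGCGG), which GC-rich promoters often contain.

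The element 12.2 kb downstream of Fos, chr12:85485776-85486450, had the opposite sign. Its effect was -0.97 (the authors' adjusted p = 0.00835, the weakest of the 11), at 64.7% GC and 75.6 CpG per kb. Distal elements of 60 to 65% GC were of mixed sign in the list, with 37.3% of 233 positive and a median of -1.01. Fos therefore had 4 positive elements from 29.0 kb upstream to the first intron and 1 negative element downstream.

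Fosb encodes a second activity-induced FOS protein. Its element, chr7:19325826-19326200, lay 16.0 kb upstream of the nearest Fosb TSS within an intron of the gene D830036C21Rik. The effect was 1.39 (the authors' adjusted p = 9.96e-07) at 50.9% GC, close to the median of 1.23 of the 1071 distal elements in its GC bin, of which 87.9% were positive. No element covered the Fosb promoter, whose GC content was 59.2% over 500 bp on each side of the TSS.

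Fosl2 encodes FRA2, a FOS protein without the strong activation domain of FOS. Its element, chr5:32055701-32055975, was 275 bp wide and lay far upstream in an intron of Babam2, which encodes a subunit of a BRCA1-containing complex. The midpoint was 79963 bp from the Fosl2 TSS, the farthest inside the 100 kb limit, and no element of these genes lay between it and the limit. The effect was 0.69 (the authors' adjusted p = 0.00382), below the median of 1.34 of the 1311 distal elements of 40 to 45% GC, and 1.59% of positive elements in the list were smaller. At 44.0% GC and 7.27 CpG per kb it was the poorest in both of the 11 elements.

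Fosl1, which encodes FRA1, had no assigned element in a territory of 16.2 kb. Of the listed elements, 3 lay within 100 kb of its TSS but nearer to other genes. The nearest was 15.3 kb upstream, assigned to AI837181, with an effect of 0.94 (the authors' adjusted p = 1.33e-05). The next was the promoter element of Drap1, 22.6 kb upstream, with -2.55 (the authors' adjusted p = 9.15e-08). The third was assigned to Tsga10ip, 40.7 kb upstream, with 2.12 (the authors' adjusted p = 9.95e-09).

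Jun encodes the JUN protein, which can bind AP-1 sites with FOS partners or with itself. Its promoter element, chr4:95051901-95053475, was 1575 bp wide, the widest of the 11, and ran from 321 bp inside the gene to 1253 bp upstream of the TSS. It overlapped the 5′ UTR, and its midpoint, 466 bp upstream, lay in the annotated span of Junos, a gene on the opposite strand, but outside the basic transcripts of Junos. The effect was 1.15 (the authors' adjusted p = 1.79e-05) at 60.6% GC and 69.2 CpG per kb. This was the opposite sign to the median of -1.14 in its class and GC bin, which it shares with the Fos promoter element.

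Junb encodes JUNB, a JUN protein abundant in activated T cells. Its element, chr8:84976176-84976800, was 625 bp wide with its midpoint 2.2 kb downstream of the TSS, beyond the end of the basic Junb transcript, and so was classed as distal. The effect was 1.19 (the authors' adjusted p = 8.39e-06), and its GC content of 69.1% was the highest of the 11, with 91.2 CpG per kb. Of the 234 distal elements of 65 to 70% GC, 12.4% were positive and the median was -1.37. Among the 11 elements, this was the positive element in the bin with the smallest positive share.

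Jund encodes JUND, which is present in resting cells. Its promoter element, chr8:70698476-70699325, was 850 bp wide, had its midpoint 49 bp upstream of the TSS, and overlapped Jund coding and 5′ UTR sequence and an exon of Gm11175 on the other strand. Its effect of -1.03 (the authors' adjusted p = 0.00166) was the lowest of the 11. At 68.8% GC and 104 CpG per kb, it lay in a bin of 1796 promoter elements with 3.62% positive and a median of -1.45. Jun and Jund thus had promoter elements of opposite sign, and Jund had the common one.

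Batf3 encodes a BATF protein required by a dendritic cell lineage and expressed in activated T cells. Its element, chr1:191125851-191126250, was 400 bp wide and intergenic, 27.7 kb downstream of the TSS. The effect was -0.93 (the authors' adjusted p = 0.00119) at 66.0% GC, in the same bin as the Junb element, which has the opposite sign. The median of that bin was -1.37.

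Batf, whose protein pairs with JUN proteins and IRF4 in T cells, had no assigned element in a territory of 73.3 kb. The 4 elements within 100 kb of its TSS were assigned to Jdp2, a neighbouring gene for a bZIP protein that dimerises with JUN. From the farthest to the nearest these were at 93.4, 87.8, 87.0 and 61.9 kb upstream, with effects of 0.76, -1.73, -2.37 and 0.81. The central pair are Jdp2 promoter elements at 66.6% and 71.9% GC, and the outer pair are distal elements at 41.3% and 46.5% GC that each hold 1 AP-1 match.

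**Figure D3:**
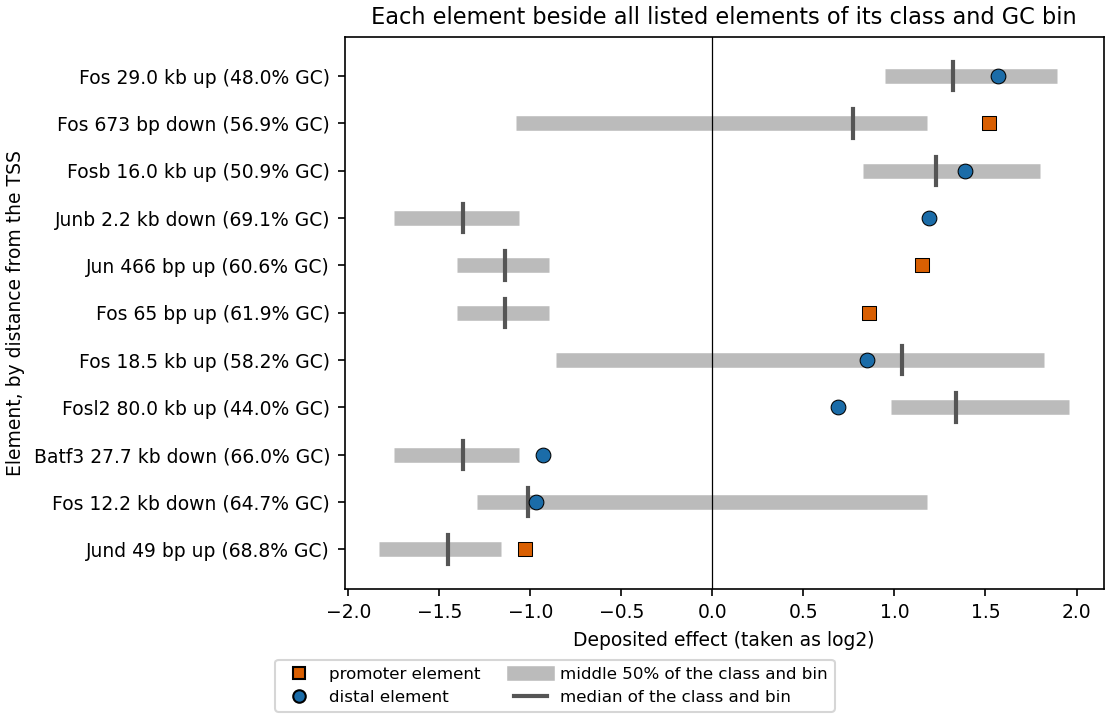
Deposited effect (taken as log2) of each of the 11 elements (orange squares promoter, blue circles distal), ordered by effect and labelled with distance from the TSS and GC content. The grey bar is the middle 50% and the dark line the median of all listed elements of the same class and 5-point GC bin. Junb, Jun and the Fos promoter lie to the right of 0 while their bars lie wholly to the left.

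Each whole element was searched for short motifs on both strands, and shares are given beside those of all 9628 elements within 100 kb of a TSS. A match is a description of the letters and does not show binding. The SRE was matched in 3 of 11 elements, beside 2.19%. The Fos promoter match, CCATATTAGG, was centred 304 bp before the TSS, where the SRE of Fos is known. The Junb match, CCATATATGG, was centred 2090 bp after the TSS. The match downstream of Fos, CCATATTTGG, was centred 6 bp from the middle of its element and its last bases overlapped an NFAT-like match (TGGAAA). These 3 elements had effects of 0.86, 1.19 and -0.97, so the match did not go with 1 sign.

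The half-site of the CRE, TGACGT, was added to the search after the sequences had been read, so its counts here are no test. It was matched in 7 of 11 elements, beside 16.4%, in the 3 positive promoter elements, beside 32.1% of that class, and in each of the 3 elements with an SRE, at 241 bp between centres in the Fos promoter, 30 bp downstream of Fos and 22 bp at Junb. The SRE and the half-site occurred together in 0.353% of all elements, 34 of 9628, and in 16.1% of the 211 elements with an SRE. The match lay 63 bp before the Fos TSS, a position near which a CRE is known. The other 4 elements with it were those 18.5 kb upstream of Fos, in the Fos intron, at Jun and at Jund. The full CRE was matched at Jund alone, centred 210 bp before the TSS, beside 3.37% of all elements.

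AP-1 (TGANTCA) was matched in 1 of 11 elements, beside 23.1% of all elements. Among the 5 positive distal elements it was matched in 1, beside 39.7% of that class. That element was at Fosl2, and both matches read TGAGTCA, with centres 13 and 43 bp from its middle. TGACATCA, added to the search from knowledge of the Jun promoter, was matched at Jun alone, 41 bp before the TSS, beside 4.42% of all elements. Neither the 3 positive promoter elements nor the Junb element held TGANTCA, which was matched in 21.9% of all positive promoter elements.

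Other motifs gave the following counts. GGGCGG was matched in 8 of 11 elements, beside 54.7%, and in all 4 promoter elements, near the 86.6% of all promoter elements. The EGR motif (GTGGGCG, which overlaps GGGCGG by its last 5 letters) was matched in 3, beside 18.2%. All 3 were positive distal elements, at Junb and the 2 distal sites upstream of Fos. Of all positive distal elements, 4.17% held it. NFAT-like TGGAAA was matched in 5, beside 32.5%, among them all 3 negative elements. It was matched in 25.5% of all negative promoter and 25.6% of all negative distal elements. These patterns were seen among many motifs and were not tested. ETS letters (ACTTCCG or CAGGAAG) were matched in 3, beside 29.4%, STAT (TTCNNNGAA) in 3, beside 14.4%, RUNX in 2, beside 29.6%, and the ISRE in 2, beside 11.5%. The CTCF-like pattern was matched in 0, beside 3.82%.

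**Figure D4:**
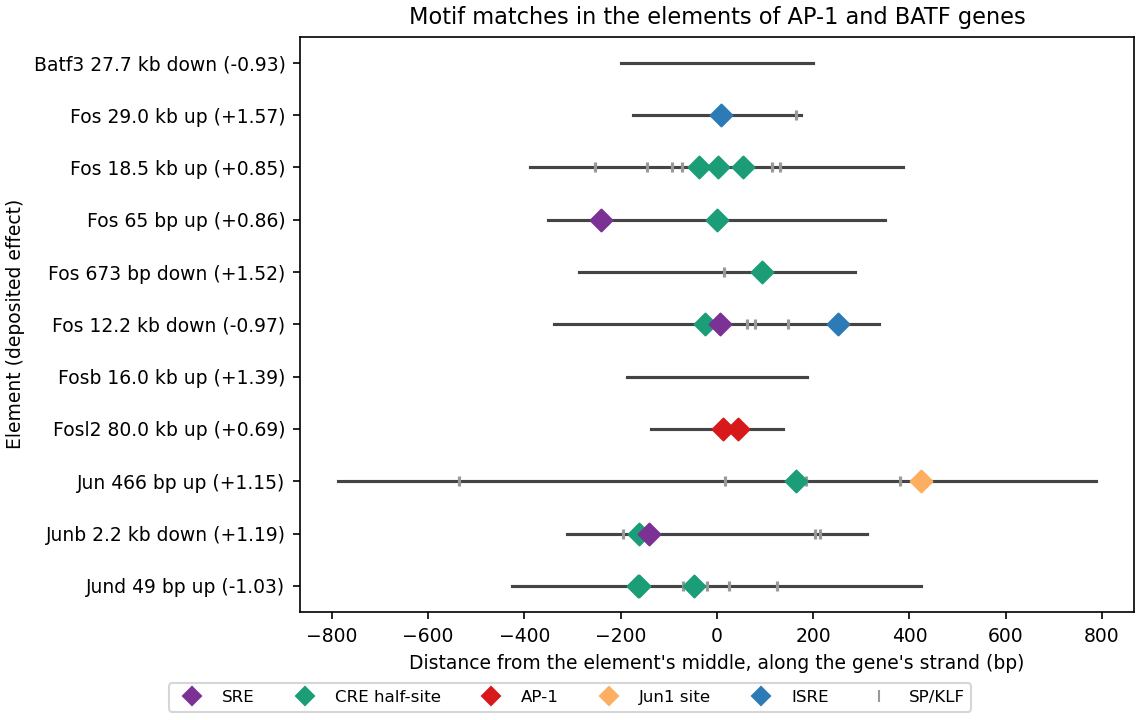
Motif matches along each of the 11 elements, drawn to scale as a line centred on the element's middle, with distance in bp along the strand of the gene and the deposited effect in the label. Diamonds mark the SRE, the CRE half-site, AP-1, the TGACATCA site of Jun and the ISRE, and grey ticks the SP/KLF box. An SRE lies beside a half-site in the Junb and downstream Fos elements, 22 and 30 bp apart between centres.

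Within 100 kb of the 9 TSSs lay another 25 elements nearer to other genes, 10 positive and 15 negative, of which 15 were promoter elements. The element with the largest effect among them was 95.6 kb downstream of Batf3, in an intron of Atf3, a stress-induced bZIP gene to which it is assigned, with 2.80 (the authors' adjusted p = 1.06e-10) and 2 AP-1 matches. The nearest to a TSS of the 9 genes was 7.22 kb upstream of Junb, assigned to Hook2, with 2.36 (the authors' adjusted p = 1.15e-09), 63.2% GC and 3 AP-1 matches. An element 56.4 kb downstream of Fosl2, assigned to Plb1, had 1.64 (the authors' adjusted p = 4.37e-08) and 1 AP-1 match. Others with 1 AP-1 match were assigned to Jdp2 (0.76 and 0.81), Opa3 (0.97), AI837181 (0.94), Asna1 (0.79) and, with a negative effect, Tnpo2 (-1.33). Assignment to the nearest TSS therefore left out AP-1-matched elements, mostly positive, within 100 kb of several of the 9 genes.

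Genes that work with AP-1 were taken from 3 lists. Of 19 genes for bZIP partners and relatives, 12 had an element, 8 a positive and 10 a negative one, beside 31.2%, 16.0% and 19.8% of all protein-coding genes. Their 14 promoter elements were 1 positive and 13 negative, and their 22 distal elements 21 positive and 1 negative, with medians of -1.30 and 1.13. AP-1 was matched in 14 of the 22 distal elements, beside 36.0% of all distal elements within 100 kb of a TSS. Examples are the Atf3 distal elements (2.80, 1.34 and 1.10), each with an AP-1 match, and the distal Bach2 element with 3 matches (1.99). BACH2 is a repressor that binds AP-1-like sites in T cells. Distal elements without a match included those with effects of 2.50 at Maf and 2.18 at Nfe2l2. Batf2, Atf2, Atf4, Atf7, Creb1, Mafk and Nfe2l1 had none.

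Of 17 genes that act upstream of AP-1, the MAP kinase cascade and the SRF, ELK and MRTF factors, 14 had an element, beside 31.2% of all genes. Their 11 promoter elements were 1 positive and 10 negative, and their 12 distal elements 9 positive and 3 negative. Srf, whose protein binds the SRE, had a promoter element of -1.55, and Mapk14, the p38 kinase, one of -1.64 beside a distal element of 1.19 with an AP-1 match. Map2k1, Map2k7 and Elk1 had none. All 5 DNA partners of AP-1 had an element, beside the same 31.2%: Irf4 (0.85), Irf8 (0.78), Nfatc1 (1.71 and -1.87), Nfatc2 (-0.99 and -1.14) and Nfatc3 (-1.55 and -1.10).

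Over the 3 lists, 2 of 28 promoter elements and 33 of 39 distal elements were positive, beside 15.6% and 83.3% in the whole list. The 2 were at Crem (1.88), which encodes a CRE-binding modulator, and Elk4 (1.16), an ETS partner of SRF. The AP-1 and BATF genes had 3 of 4 promoter elements positive, 2 of the 3 at Fos. TGANTCA was matched in 1 of the 7 distal elements of the AP-1 and BATF genes and in 22 of the 39 of the related genes. The share was 36.0% over all distal elements within 100 kb of a TSS. A share over 7 elements is coarse, and AP-1-matched elements close to Junb and Fosl2 were assigned to other genes. None of these differences was tested.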

How the data were processed

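STARR-seq was measured in 2 replicates of 1 group, and the authors deposited 1 element list for both on mm10, made from the alignments of both, per the deposited readme files. The authors deposited a signed effect, taken here as log2, and a p-value for each element, raw and adjusted. The adjusted p was taken as a Benjamini-Hochberg adjustment, under which the deposited p-values imply 114722 tests. The aligner, element caller and input library are not given in the sources used here. Element widths are also deposited by the authors. The 10 elements on unplaced scaffolds were not annotated, which left 10521.

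GENCODE M21 basic TSSs and GRCm38.p6 sequence were read with Python 3.11.15, pandas 2.3.3, NumPy 2.4.6 and pysam 0.24.0. GC content, CpG and motif matches were computed over each whole element, and copies were sought with BLAST 2.17.0. Assignment and motif search were tested on simulated data. All elements of the 9 genes are named. Related genes are named where they hold an element, as are neighbouring genes that hold an element within 100 kb. The genes, lists and motifs were chosen with earlier results of these data known. With 1 pooled list no test over samples could be made. Alternatives were a stricter adjusted p, a minimum width, other windows, edge distance, TSSs of any gene type, other promoter limits and other AP-1 matches.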

Additional observations from a re-analysis of the deposited data

How the results depend on the processing

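Over 10 alternatives, 0 of 68 comparisons reversed in sign. Only the median effects could reverse, since counts and GC content carry no sign. Of the 68, 50 kept their value, which for a count meant staying within 1.5 times and for a median staying the same as printed. The other 18 moved. With an adjusted p of at most 0.001, 6 elements at 4 genes were left and 0 genes kept a negative element. The elements of Batf3, Fosl2 and Jund and those 18.5 kb upstream and 12.2 kb downstream of Fos were lost. The promoter median was then 1.15, the distal median 1.39, the median GC content 58.8% and the count with AP-1 0. Within 50 kb the Fosl2 element was lost, which gave a distal median of 1.02, a median GC content of 61.2% and a count with AP-1 of 0. With TSSs of any gene type allowed, 7 elements at 4 genes were left, 5 of them positive and at 3 genes, with a median GC content of 61.9% and 0 with AP-1, because those of Batf3, Fosb, Fosl2 and the Fos element 29.0 kb upstream were nearer to another gene's TSS. With promoters limited to 500 bp, the promoter median was 0.86 and the distal median 1.02. Leaving out a replicate was not run, since the list pools both. No paired analysis was possible because the series has 1 group and the list gives no values per replicate. The unknown depth limits every value, and each count rests on elements the authors listed.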

Other observations

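Beyond the 100 kb limit, 2 further elements had Jun as the nearest protein-coding TSS. The nearer, chr4:95161026-95161925, was in an intron of Junos, 109254 bp upstream of Jun, just outside the limit, with an effect of -1.08 (the authors' adjusted p = 0.00276) at 61.2% GC. The other, chr4:95303051-95303875, was intergenic, 251 kb upstream, with 1.19 (the authors' adjusted p = 0.000145) at 49.7% GC. Neither held TGANTCA.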
